A study of Mus musculus with 12 samples.

Results

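The genes described are 6 cadherins, Cdh2, Cdh4, Cdh6, Cdh11, Cdh13 and Cdh15, out of 55487 Ensembl genes in the table of read counts. They were found by matching their symbols to the Ensembl identifiers of the table, and the set was chosen from results of the same comparison, so the values of these 6 genes in that comparison are a description. Which of them passed the threshold is stated only as part of that description, without p-values. C2C12 is an established mouse myoblast line whose cells join into myotubes with many nuclei once serum is reduced. All cultures differentiated in 2% horse serum over 5 days. They then spent 24 h in 4% horse serum (libraries 1 to 6) or in 4% STEM (libraries 7 to 12), a product without cells that holds what human embryonic stem cells release after differentiation has begun. The 2 groups hold 6 libraries each. STEM took the place of horse serum, so its addition and the removal of horse serum cannot be told apart, and all libraries come from 1 cell line grown without the other cells of a muscle.

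Cadherins are calcium-dependent adhesion proteins that span the membrane and bind, as a rule, the same cadherin on the next cell. Inside the cell, the classical members hold β-catenin or its relative plakoglobin, and through α-catenin the actin cytoskeleton. In muscle they hold myoblasts together before and during fusion. M-cadherin (Cdh15) is the cadherin typical of skeletal muscle, N-cadherin (Cdh2) is shared with neurons and the heart, and R-cadherin (Cdh4) is the third type I member of the set. K-cadherin (Cdh6) and OB-cadherin (Cdh11) belong to type II, whose first extracellular repeat is built differently. T-cadherin (Cdh13) is an exception, since it has no cytoplasmic tail, is held in the membrane by a lipid anchor, does not bind catenins, and is a receptor for adiponectin. A name such as classical and type II cadherins therefore covers it only loosely.

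Library totals ran from 13285472 to 18254882 counts with horse serum and from 14909485 to 24536264 with STEM. The horse serum library 6 stood apart from the other 5 of its group. On the first principal component of log2 CPM (read counts scaled for library size) it lay at 11.21. The other horse serum libraries lay from −35.47 to −24.64 on it, and those with STEM from 15.47 to 28.62. On the second component it lay at −53.34, and every other library between 0.22 and 11.8. The main values for the cadherins and for partner genes that turn on it are therefore also given without it. The summed level of 10 myotube markers (such as Ckm and Acta1) was 11418 to 12451 CPM in horse serum libraries 1 to 5, 5809 CPM in library 6 and 9409 to 12064 CPM with STEM. Each of the 10 was lowest within its group in library 6, where Actn2 held 13.02 CPM (87.9 to 114 CPM in libraries 1 to 5) and the fetal myosin gene Myh8 79.8 CPM (598 to 775 CPM). With STEM, Myh8 (585 ± 259 against 246 ± 36.6 CPM) and Myog (907 ± 38.3 against 745 ± 83.8 CPM) were called lower and the fusion gene Mymk (165 ± 13.3 against 212 ± 15.1 CPM) higher, where 36.4% of all genes tested were called. The other 7 markers were not called. Of these 7, Acta1, Tnni2 and Actn2 were still lower in every STEM library than in horse serum libraries 1 to 5. Acta1 held 3224 to 3822 CPM with STEM against 3895.5 to 4339 CPM in libraries 1 to 5. Tnni2 held 738 to 900 against 988 to 1071 CPM, and Actn2 held 41.4 to 73.6 CPM with STEM. Ckm, Myh1, Myh3 and Tnnt3 overlapped with libraries 1 to 5. In RNA of a whole culture, a change in the share of one kind of cell and a change in RNA per cell cannot be told apart.

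Of the 6 cadherins, 5 passed the filter on low counts, and 4 of these passed an adjusted p of 0.05 in edgeR's quasi-likelihood test. Cdh6, Cdh11 and Cdh15 were higher with STEM and Cdh13 was lower, while Cdh2 did not pass and Cdh4 had no counts. Over all 14175 genes tested, 36.4% passed, 18.9% in the higher and 17.4% in the lower direction. The libraries of the 2 groups did not overlap for 2 of the cadherins, Cdh6 and Cdh11, against 17.2% of all genes tested. The median log2 fold change of the 5 tested cadherins was 0.46, beside 0.01 over all genes tested. Because the comparison itself chose these genes, nothing is read from these counts. The same 4 genes passed in each of 19 of the 20 alternative analyses. Without horse serum library 6, Cdh2 passed as well, and 50.8% of all genes then passed.

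**Figure D1:**
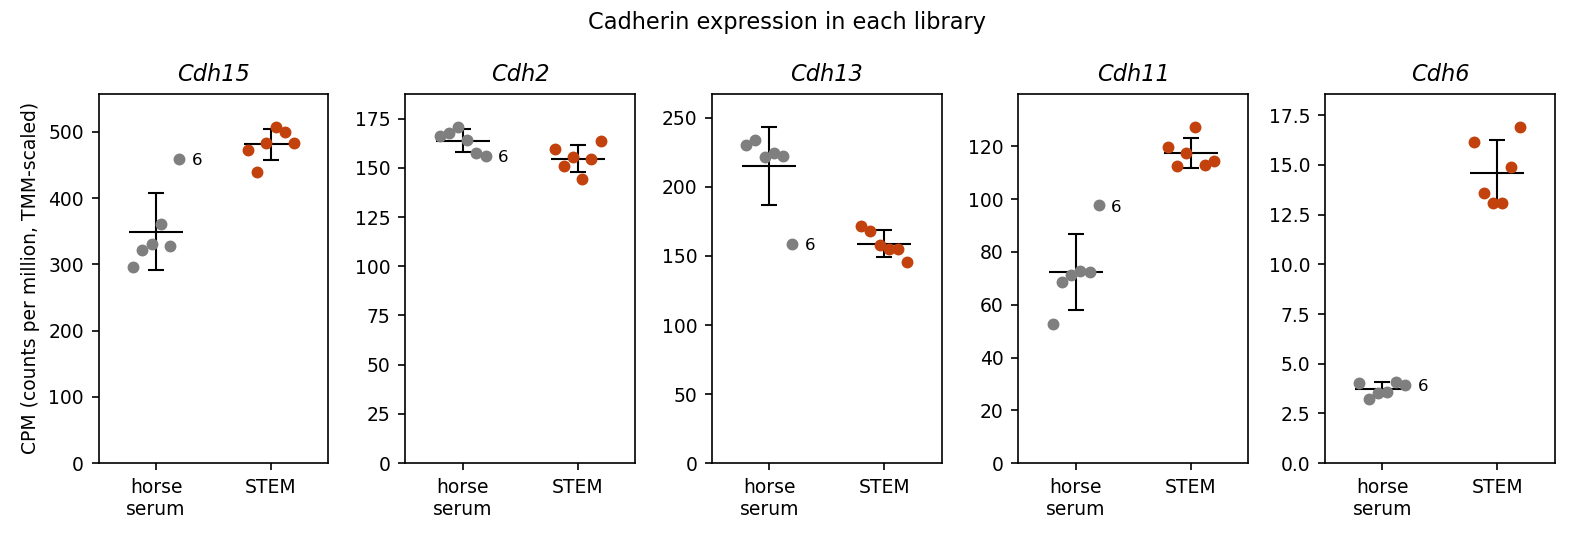
CPM of the 5 detected cadherins in the 12 libraries, with 1 panel per gene, grey (horse serum) and orange (STEM) points for libraries, and a line and bar for the group mean and SD (n = 6), on axes that start at 0. The STEM points lie above all horse serum points for Cdh6 and Cdh11, and horse serum library 6, marked by its number, lies among the STEM values for Cdh13 and Cdh15.

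M-cadherin was the most abundant of the set. Cdh15 (ENSMUSG00000031962, GRCm38, chromosome 8, 122847966 to 122867397, plus strand) ranged from 295.7 to 459 CPM with a median of 329 CPM in horse serum, and from 440.2 to 507 CPM with a median of 483 CPM with STEM. The group means and SDs (n = 6) were 349 ± 57.7 and 481 ± 23.6 CPM, and the log2 fold change was 0.46 (SE 0.0864), or 1.38-fold. Of the STEM libraries, 5 exceeded every horse serum library, and STEM library 8 fell below horse serum library 6 alone. The other 5 horse serum libraries reached 361 CPM at most and averaged 327 ± 23.2 CPM, and the log2 fold change without library 6 was 0.55.

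N-cadherin kept nearly the same level. Cdh2 (ENSMUSG00000024304, GRCm38, chromosome 18, 16588877 to 16809246, minus strand) ranged from 156 to 171 CPM with a median of 165 CPM in horse serum, and from 144 to 164 CPM with a median of 155 CPM with STEM. The means were 164 ± 5.84 and 155 ± 6.71 CPM, a log2 fold change of −0.08 (SE 0.0418). The groups overlapped, although 4 of the 6 STEM libraries lay below every horse serum library. Relative to its mean, its SD was the smallest of the detected cadherins in both groups. Its log2 fold change without horse serum library 6 was −0.10.

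R-cadherin was not detected. Cdh4 (ENSMUSG00000000305, GRCm38, chromosome 2, 179442431 to 179899373, plus strand) had 0 counts in every library, out of 196715873 counts in all. A count of 0 allows up to 3 counts in a library, which is 0.122 to 0.232 CPM at these depths, a limit that covers counting error only. No fold change can be given for this gene.

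OB-cadherin, known from bone and mesenchymal cells, was the more abundant of the type II pair. Cdh11 (ENSMUSG00000031673, GRCm38, chromosome 8, 102632095 to 102785642, minus strand) ranged from 52.6 to 97.6 CPM with a median of 71.8 CPM in horse serum, and from 112 to 127 CPM with a median of 116 CPM with STEM. The means were 72.5 ± 14.4 and 117 ± 5.61 CPM, a log2 fold change of 0.69 (SE 0.105), or 1.62-fold. The groups did not overlap, and the highest horse serum value was that of library 6, with the next at 72.6 CPM. Without that library the horse serum mean was 67.5 ± 8.44 CPM and the log2 fold change 0.80.

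K-cadherin, named for the developing kidney, had the largest fold change of the set and the lowest level of the 5 detected members. Cdh6 (ENSMUSG00000039385, GRCm38, chromosome 15, 13028701 to 13173675, minus strand) ranged from 3.24 to 4.11 CPM with a median of 3.77 CPM in horse serum, on 42 to 77 counts per library. With STEM it ranged from 13.1 to 16.9 CPM with a median of 14.2 CPM, on 199 to 396 counts. Every STEM library was thus more than 3 times the highest horse serum library. The means were 3.74 ± 0.341 and 14.6 ± 1.63 CPM, a log2 fold change of 1.96 (SE 0.0968), or 3.89-fold. Horse serum library 6, at 3.95 CPM, lay within the other 5 for this gene, and the log2 fold change without it was 1.98.

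The 250 bases before the RefSeq start of Cdh6 are shown because it had the largest fold change and because several repressors of cadherin genes, described further on, are known to bind E-boxes. They lie outside annotated exons, at chr15:13173676-13173925 on the minus strand of GRCm38.p6 (RefSeq), and the capitals mark the 1 E-box (CANNTG, which reads alike on both strands in this notation).

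Cdh6: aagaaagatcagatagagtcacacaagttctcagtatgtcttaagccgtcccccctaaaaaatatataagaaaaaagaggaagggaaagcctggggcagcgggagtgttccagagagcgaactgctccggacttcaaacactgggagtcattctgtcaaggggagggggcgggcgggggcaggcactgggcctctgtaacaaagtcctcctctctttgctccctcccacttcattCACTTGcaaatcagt

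An E-box occurred in 66.2% of the 32851 RefSeq windows of this length. The narrower E2-box (CAGGTG, or CACCTG on the other strand) was not among the letters of this window and occurred in 17.2% of all windows. The window of Cdh15 was searched in the same way and held 3 E-boxes and no E2-box, but it lies within annotated exon sequence and is not printed. These matches describe the sequence only, and binding was not measured.

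T-cadherin was the one member called lower. Cdh13 (ENSMUSG00000031841, GRCm38, chromosome 8, 118283733 to 119324921, plus strand) ranged from 159 to 234 CPM with a median of 223 CPM in horse serum, and from 146 to 172 CPM with a median of 156 CPM with STEM. The means were 215 ± 28.0 and 159 ± 9.56 CPM, a log2 fold change of −0.44 (SE 0.0805). The groups overlapped through horse serum library 6 alone, at 159 CPM, while libraries 1 to 5 held 222 to 234 CPM and a mean of 227 ± 5.50 CPM, above every STEM library. Without library 6 the log2 fold change was −0.51. This library also had the low sum of myotube markers given above, and the part of either in the other was not tested.

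**Figure D2:**
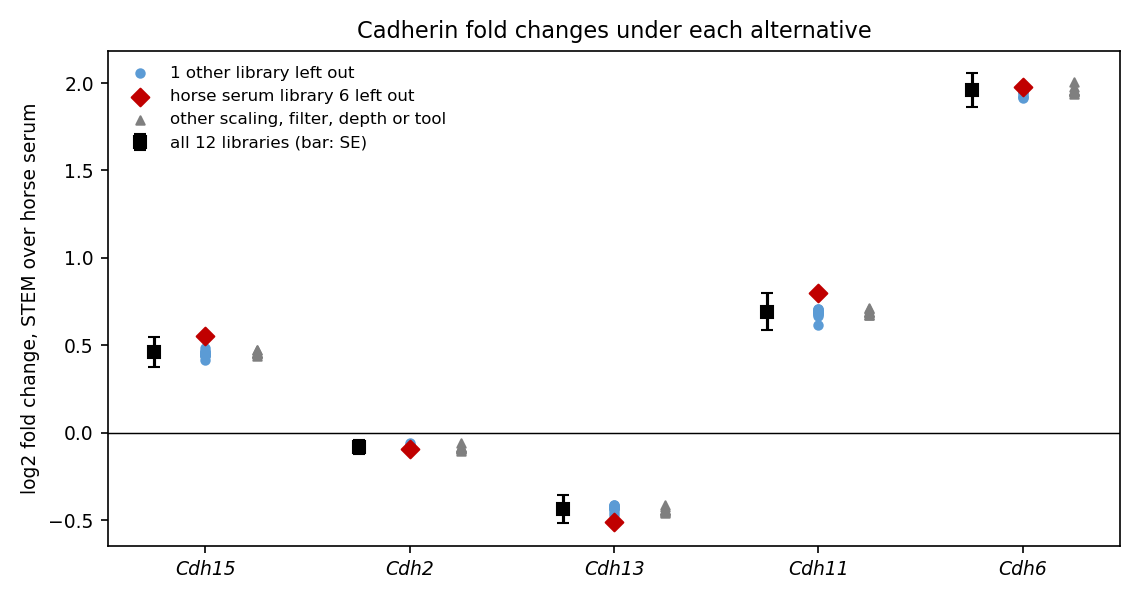
Log2 fold change of STEM over horse serum for the 5 tested cadherins, with black squares and SE bars for all 12 libraries, blue points and a red diamond for analyses that leave out 1 library, and grey triangles for other scalings, filters, depths or tools. Cdh6 lies near 1.96, Cdh11 and Cdh15 lie above 0, Cdh13 below 0 and Cdh2 close to 0, and leaving out horse serum library 6 moves Cdh11, Cdh13 and Cdh15 farther from 0.

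Levels of different genes were compared as RPKM, which is CPM divided by length in kilobases, with all exons of the gene joined for the length. In horse serum Cdh15 stood at 107 ± 17.7 RPKM, far above Cdh2 at 20.3 ± 0.723 and Cdh13 at 19.2 ± 2.50, whose ranges overlapped. Cdh11 followed at 8.14 ± 1.62 RPKM and Cdh6 at 0.415 ± 0.0378 RPKM, each apart from its neighbours. With STEM, Cdh15 stood at 148 ± 7.26 RPKM and Cdh2 at 19.2 ± 0.832, now above the whole range of Cdh13. The levels of Cdh13 (14.1 ± 0.851 RPKM) and Cdh11 (13.2 ± 0.630) overlapped. Cdh6 stood at 1.62 ± 0.181 RPKM and was still the lowest detected member. The place of Cdh13 depends on the length used. With the longest transcript in place of all exons, Cdh13 was above Cdh2 in both groups, at 47.2 against 33.8 RPKM in horse serum and 34.8 against 31.9 RPKM with STEM. It was then also above Cdh11 with STEM, which averaged 20.8 RPKM.

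The summed level of the set was 155.5 ± 16.5 RPKM in horse serum (186 RPKM in library 6) and 196 ± 6.98 RPKM with STEM (183 to 203 RPKM). Most of this sum was M-cadherin, with a share of 68.8 ± 3.69% in horse serum and 75.4 ± 1.13% with STEM. Horse serum library 6 had a Cdh15 share of 75.9%, which lay within the STEM range. The share of Cdh2 was 13.2% and 9.79% on average, that of Cdh13 12.5% and 7.23%, that of Cdh11 5.20% and 6.72%, and that of Cdh6 0.269% and 0.827%, in horse serum and with STEM. With the longest transcript as length, the share of Cdh15 was 53.0% and 62.3%. Cdh15 was thus the largest share with either length.

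**Figure D3:**
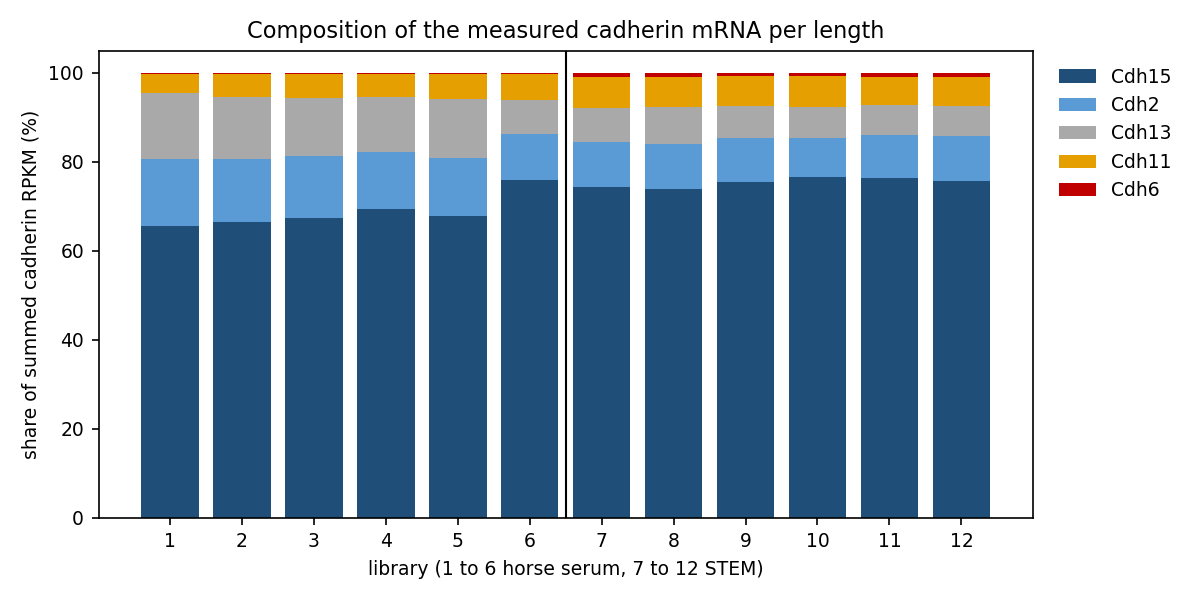
Share (%) of each detected cadherin in the summed RPKM of the set, as 1 stacked bar per library, horse serum left of the line and STEM right of it. Cdh15 makes up most of every bar, and the bar of horse serum library 6 resembles the STEM bars in its Cdh15 and Cdh13 shares.

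Ratios within a library do not depend on its total. The ratio of Cdh15 to Cdh2, the 2 cadherins of fusing myoblasts, was 5.32 ± 1.04 in horse serum and 7.73 ± 0.573 with STEM, on RPKM. It was at most 5.45 in horse serum libraries 1 to 5 and at least 7.23 with STEM, and library 6 had 7.31. The ratio of Cdh11 to Cdh6 was 19.7 ± 3.97 in horse serum and 8.23 ± 1.10 with STEM, without overlap, as Cdh6 differed by the larger factor of the pair. The ratio of Cdh11 to Cdh13 was 0.443 ± 0.169 and 0.934 ± 0.0706, without overlap, and in horse serum its highest value was again that of library 6, 0.775.

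Variation inside the groups was described by Pearson's r of log2 CPM after each group mean was subtracted, which removes the difference between the groups. The 12 libraries share a cell line, and the values carry no test. Cdh11 and Cdh15 moved together, with r of 0.897 over 12 libraries and 0.734 over the 11 libraries without horse serum library 6. Horse serum library 1 was the lowest for both genes, at 52.6 CPM for Cdh11 and 295.7 CPM for Cdh15. How far r rests on library 1 was not tested. Cdh13 ran against Cdh15 (r = −0.89) and Cdh11 (r = −0.737), but without library 6 these values were −0.489 and −0.155, so the second of them rests on that library. Cdh2 and Cdh6 had r between −0.474 and 0.354 with every other member.

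**Figure D4:**
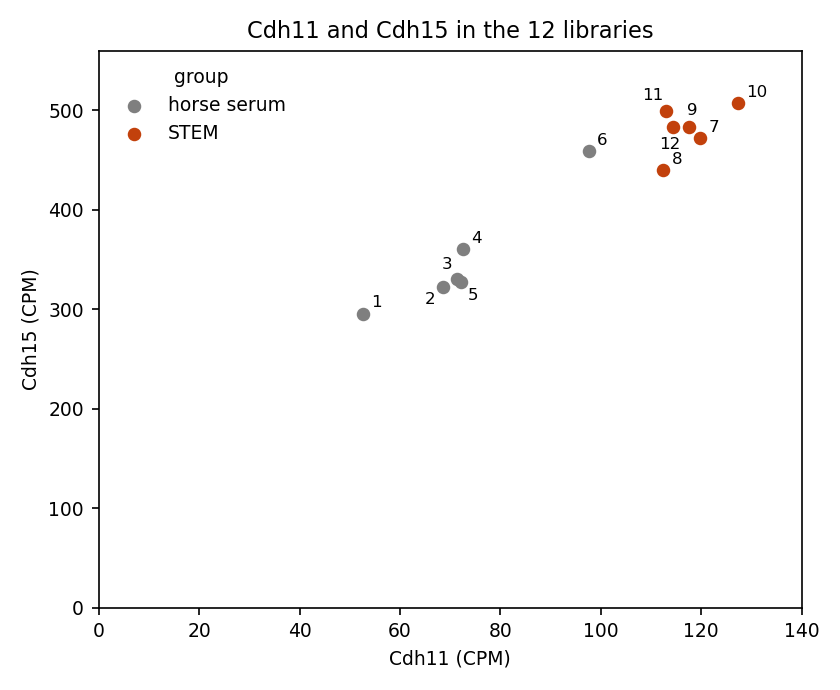
Cdh15 against Cdh11 in CPM, with 1 numbered point per library and both axes from 0. Among the horse serum points library 1 is lowest and library 6 highest on both axes, and library 6 lies between the other horse serum points and the STEM points.

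The genes whose variation inside the groups was most like that of each cadherin were also taken from all genes tested. They were Zfp646 (r = 0.989) and Traf4 (0.977) for Cdh15, Whamm (0.907) and Hpgd (0.891) for Cdh2, and Scara3 (0.969) and Wnt9a (0.962) for Cdh11. For Cdh13 they were Csrp3 (0.983), a muscle LIM protein, and Nfil3 (0.981), and for Cdh6 C2cd5 (0.884) and Pde8a (0.874). Over the 11 libraries without horse serum library 6, Zfp646 and Whamm were again the most alike of all genes, at 0.963 and 0.920, and the other 8 kept r between 0.865 and 0.928. The genes named here are the extremes of a search through 14175 genes over 12 libraries. How high r would reach by chance in such a search was not tested.

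Most of the other type I and type II cadherins were hardly expressed. Of 14 listed, 4 passed the filter, and the other 10 had at most 7 counts in any library, 5 of them 0 in all. Cdh18, a type II cadherin known from the brain, fell from 16.3 ± 3.09 to 9.70 ± 0.610 CPM (log2 fold change −0.75, SE 0.116, adjusted p = 0.000181), with all STEM libraries below all horse serum libraries. E-cadherin (Cdh1), the cadherin of epithelia, fell from 4.78 ± 0.397 to 3.32 ± 0.920 CPM (−0.54, SE 0.160, adjusted p = 0.0162), with overlap. Cdh24 was called higher at 4.75 ± 1.35 against 6.52 ± 0.593 CPM (adjusted p = 0.0321), but this call was lost in 10 of 20 alternatives, with an adjusted p of up to 0.0751. Its log2 fold change without horse serum library 6 was 0.63 (adjusted p = 9.28e-05). The epithelial markers, of which Cdh1 is one, summed to 4.85 to 6.89 CPM with STEM. In horse serum they summed to 10.9 to 17.0 CPM in libraries 1 to 5 and to 6.25 CPM in library 6. Most of each sum was Cdh1 itself and Krt19, which was at 6.30 ± 3.33 CPM in horse serum and 2.20 ± 0.770 CPM with STEM. The part of epithelial cells in the Cdh1 values was not tested. VE-cadherin (Cdh5), the endothelial one, was among 6 endothelial markers that summed to at most 1.001 CPM in any library, 3 of them 0 throughout.

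The wider cadherin superfamily, meaning protocadherins, FAT and Dachsous cadherins and relatives, had 14 of 32 listed genes above the filter, with 3 called higher and 2 called lower and a median log2 fold change of −0.02. That is close to the 36.4% called over all genes. Cdhr1, a cadherin known from photoreceptors, rose from 10.7 ± 2.13 to 20.99 ± 2.07 CPM (0.97, SE 0.121, adjusted p = 2.64e-05), and Pcdh1 from 10.1 ± 2.26 to 18.3 ± 3.09 CPM (0.85, SE 0.145, adjusted p = 0.000424), both without overlap. Pcdh18 fell from 33.9 ± 3.56 to 26.8 ± 1.61 CPM (−0.33, adjusted p = 0.00242).

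The catenins and actin linkers, which tie cadherins to the cytoskeleton, had 15 of 18 genes tested, 2 called higher, 4 lower and 9 in neither direction, where 36.4% of all genes were called. αE-catenin (Ctnna1) fell from 845 ± 43.1 to 666 ± 26.2 CPM (−0.34, SE 0.0471, adjusted p = 6.06e-05), and vinculin (Vcl), which α-catenin recruits under tension, fell from 526 ± 31.1 to 441 ± 17.2 CPM (−0.25, SE 0.0488, adjusted p = 0.000995), both without overlap. The junctional LIM protein Limd1 rose from 94.6 ± 5.51 to 111 ± 5.99 CPM (0.23, adjusted p = 0.00241). Plakoglobin (Jup) was called higher at 87.1 ± 19.2 against 118 ± 15.4 CPM (0.43, adjusted p = 0.0225), a call lost in 4 of 20 alternatives. Jup had 0.54 without horse serum library 6 (adjusted p = 0.00229). β-catenin (Ctnnb1) was at 726 ± 71.2 and 780 ± 30.5 CPM (0.10, adjusted p = 0.202). Its horse serum library 6 held 871 CPM, and without it the log2 fold change was 0.16 (adjusted p = 0.00204). p120-catenin (Ctnnd1), which keeps cadherins at the surface, was at 29.8 ± 2.55 and 27.1 ± 2.51 CPM (−0.14, adjusted p = 0.138). Without horse serum library 6 the list had 8 higher and 5 lower, where 50.8% of all genes were called.

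Of the 42 genes of all 8 lists below the filter, 2 passed in DESeq2 and in edgeR without the filter. They were picked out after their values were seen, and the share of all genes that passed in these analyses is not given here. On simulated data, 9% of the genes called by DESeq2 were false calls, against 3.03% for edgeR. αT-catenin (Ctnna3), the α-catenin of heart and testis, had 2 to 4 counts per library in horse serum and 8 to 19 with STEM (adjusted p = 0.000421 in DESeq2). Desmoplakin (Dsp), which ties desmosomes to intermediate filaments, had 9 to 19 counts in horse serum and 4 to 9 with STEM (adjusted p = 0.0111 in DESeq2).

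Nectins, which help to start cadherin junctions, had 4 of 5 genes tested. Nectin1 rose from 3.24 ± 0.629 to 5.62 ± 1.94 CPM (0.78, adjusted p = 0.00975) and Nectin2 fell from 32.7 ± 4.09 to 24.9 ± 1.62 CPM (−0.39, adjusted p = 0.00206), or by 0.46 on the log2 scale without horse serum library 6. Of 10 desmosome genes only 2 were tested, among them Pkp1, a plakophilin, which rose from 87.8 ± 6.01 to 145 ± 8.20 CPM (0.72, SE 0.0530, adjusted p = 2.31e-07), without overlap. Its log2 fold change without horse serum library 6 was 0.76. The other tested desmosome gene was not called in the main analysis, with a log2 fold change of −0.13. The 8 below the filter had at most 19 counts in any library.

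**Figure D5:**
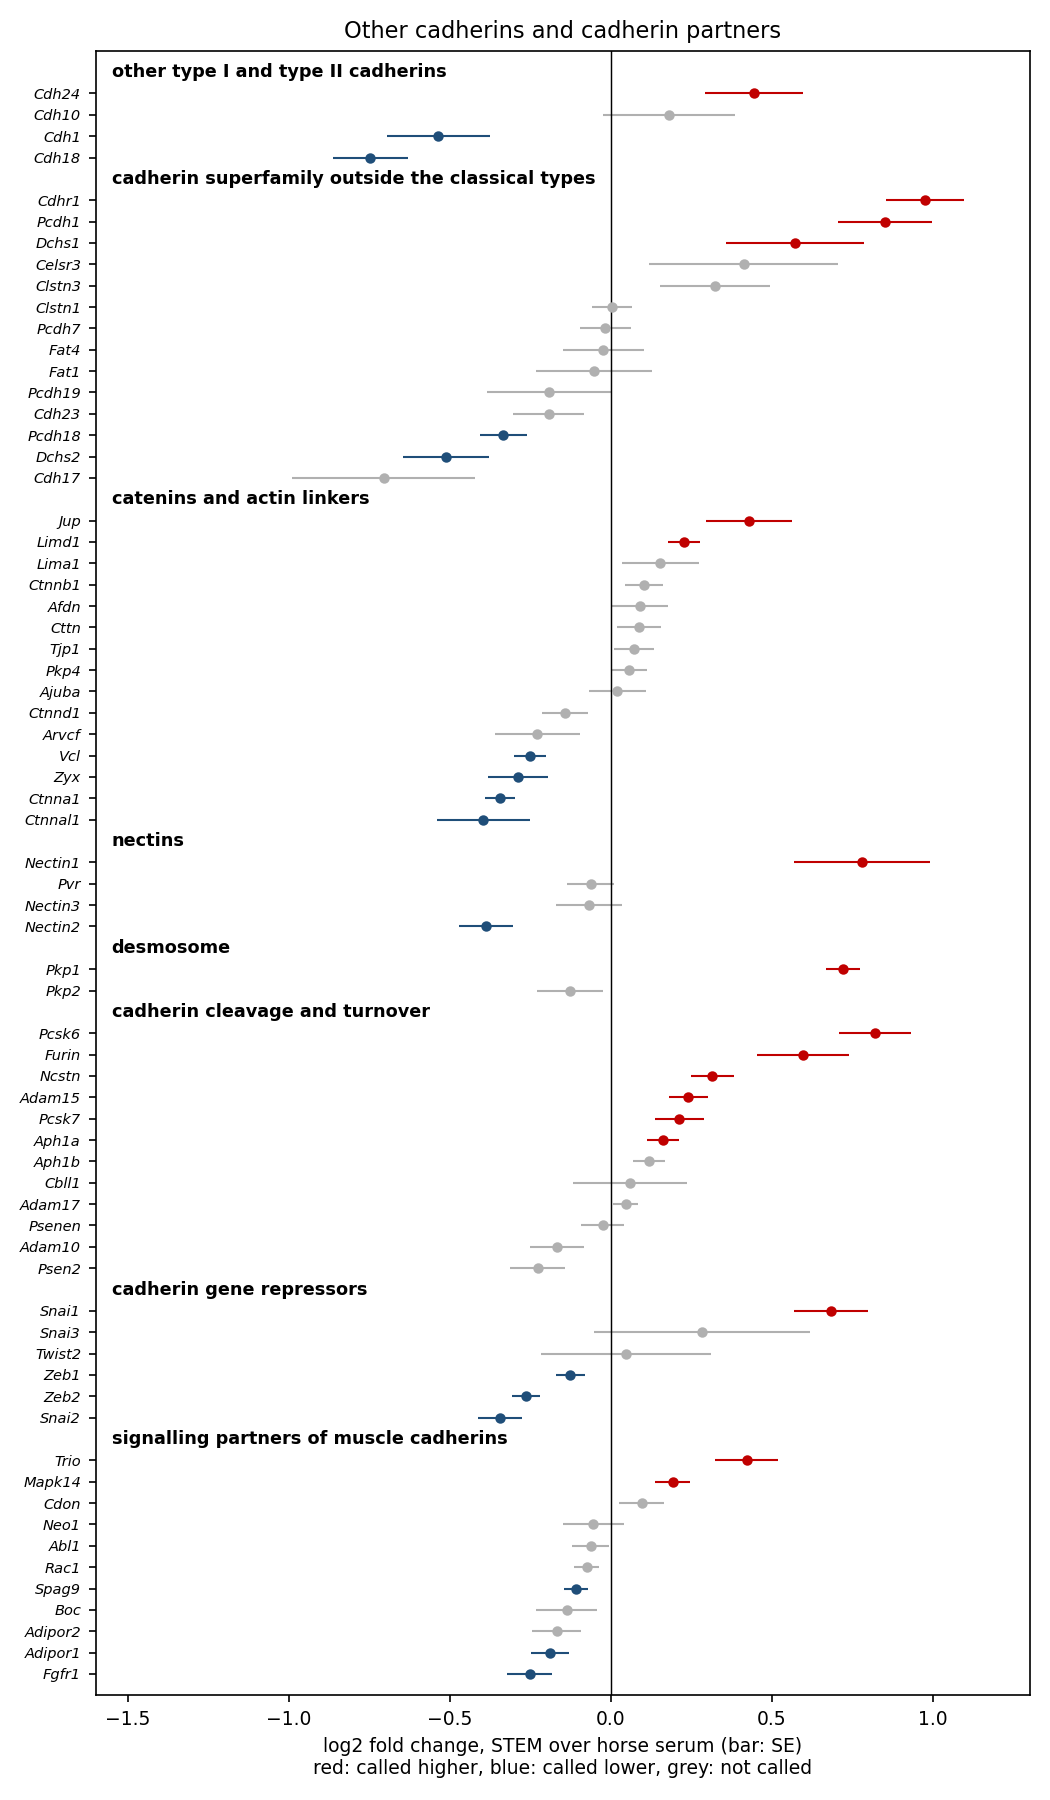
Log2 fold change of STEM over horse serum for tested genes of the 8 lists of other cadherins and cadherin partners, 1 row per gene, with bars for the SE and red, blue and grey for genes called higher, called lower and not called. The called genes of the cleavage and turnover list lie above 0, while most other lists hold genes called in both directions.

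Genes of cadherin cleavage and turnover had 13 of 14 members tested, of which 7 were called higher, where 18.9% of all genes were, with a median log2 fold change of 0.16. This list, like the others, was written with earlier results of these data known, so nothing is read from its count. The list included proprotein convertases, which remove the cadherin prodomain, and parts of γ-secretase, which cuts inside the membrane. None of its genes was called lower in the main analysis. Without horse serum library 6, and with some other scalings and filters, 1 was called lower. Pcsk6 rose from 2.84 ± 0.306 to 5.00 ± 0.508 CPM (0.82, SE 0.112, adjusted p = 6.08e-05), and furin (Furin) from 44.5 ± 11.3 to 67.5 ± 9.27 CPM (0.60, SE 0.143, adjusted p = 0.00562). Without horse serum library 6 the log2 fold change of Furin was 0.74 (adjusted p = 3.02e-05). Ncstn, which encodes the γ-secretase subunit nicastrin, rose from 47.7 ± 4.40 to 59.4 ± 4.38 CPM (0.31, adjusted p = 0.00184). Adam10, the sheddase of N-cadherin, was at 65.1 ± 9.95 and 58.0 ± 3.52 CPM (−0.17, adjusted p = 0.13).

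The repressors of cadherin genes, zinc finger and helix-loop-helix factors known for switching off Cdh1 in epithelia, had 6 of 7 genes tested, with 1 called higher and 3 lower, where 18.9% of all genes were called higher and 17.4% lower. Snai1 rose from 7.39 ± 0.389 to 11.9 ± 2.23 CPM (0.68, SE 0.116, adjusted p = 0.000352), and its relative Snai2 fell from 12.5 ± 0.786 to 9.81 ± 0.525 CPM (−0.34, SE 0.0690, adjusted p = 0.00128), both without overlap. Zeb2 fell from 131 ± 7.64 to 109 ± 2.63 CPM (−0.26, adjusted p = 0.000301). Zeb1 was called lower at 280 ± 16.7 against 256 ± 6.13 CPM (−0.13, adjusted p = 0.0421), a call lost in 11 of 20 alternatives. Zeb1 had −0.16 without horse serum library 6 (adjusted p = 0.000669).

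The signalling partners of muscle cadherins were all tested, 11 genes with 2 called higher and 3 lower, where 36.4% of all genes were called. Trio, an exchange factor for small GTPases that acts with M-cadherin in myoblast fusion, rose from 150 ± 18.6 to 201 ± 27.5 CPM (0.42, SE 0.0974, adjusted p = 0.00387), and the p38 kinase gene Mapk14 from 41.5 ± 2.84 to 47.4 ± 1.83 CPM (0.19, adjusted p = 0.0113). Fgfr1, which N-cadherin binds, fell from 81.8 ± 5.95 to 68.7 ± 7.16 CPM (−0.25, adjusted p = 0.00994). Cdon, a co-receptor bound by cadherins in myoblasts, was at 462 ± 42.5 and 493 ± 43.5 CPM (adjusted p = 0.317), and its relative Boc at 19.9 ± 2.91 and 18.01 ± 1.38 CPM (adjusted p = 0.277). Without horse serum library 6, Boc passed as lower (−0.21, adjusted p = 0.0244).

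The other receptors of adiponectin can be set beside T-cadherin. Adipor1 fell from 264 ± 23.9 to 232 ± 9.06 CPM (−0.19, SE 0.0587, adjusted p = 0.0202). Adipor2 was at 143 ± 18.6 and 127 ± 3.23 CPM (−0.17, adjusted p = 0.0961). Its horse serum library 6 held 106 CPM, the lowest of all, as for Cdh13 within its group, and without that library the log2 fold change was −0.24 (adjusted p = 1.2e-05).

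In all 8 lists, 69 of 111 genes were tested and 33 were called, 18 higher and 15 lower, with a median log2 fold change of 0.00, where 36.4% of all genes were called. The groups did not overlap for 15 of the 69, where this held for 17.2% of all genes. Without horse serum library 6, 25 were called higher and 23 lower, where 50.8% of all genes were called. Markers of other cells moved as well. The 6 markers of dividing cells summed to 651 to 985 CPM in horse serum libraries 1 to 5, 1110 CPM in library 6 and 485 to 598 CPM with STEM. Of these markers 5 were called lower, where 17.4% of all genes were. The 6 genes listed for undifferentiated myoblasts summed to 169 to 207 CPM and 262 to 311 CPM, but they did not move together. Pax7 (33.3 ± 3.90 and 32.4 ± 5.78 CPM) and Myod1 (84.8 ± 6.97 and 86.4 ± 8.71 CPM) were not called. Id1 and Id3 were higher, Myf5 was lower, and most of the rise of the sum was that of Cdkn1c, an inhibitor of the cell cycle, at 25.8 to 41.0 CPM in horse serum and 93.9 to 144 CPM with STEM. The 6 neural markers summed to 2.19 to 7.48 CPM and 19.2 to 24.2 CPM, with Tubb3 called higher. The 6 macrophage markers summed to 2.97 to 6.00 CPM in all libraries. The part of these cells in the cadherin values was not tested.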

How the data were processed

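The authors deposited raw read counts per Ensembl gene for 12 libraries of stranded total RNA depleted of ribosomal RNA. The submitters' processing notes name STAR 2.7.3a, featureCounts 1.6.3, DESeq2 1.26.0 and build GRCm38. The annotation release and the strand setting are not given in the sources used here. Symbols, coordinates and exon lengths came from GENCODE M21, which held 55227 of 55487 genes. The exons of the 6 cadherins share no bases with the annotated exons of any other gene.

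The samples were grouped by their labels. The labels do not say whether libraries came from separate cultures, so p-values measure only the spread between these libraries. The 30 pairs of libraries within groups differed by more than sampling noise (chi-square per degree of freedom of 3.29 or more).

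The quasi-likelihood test of edgeR 4.0.16 (TMM scaling, filterByExpr, robust glmQLFit, then glmQLFTest) was run in R 4.3.3 on all 12 libraries, 14175 genes being kept, with Benjamini-Hochberg adjustment and a threshold of 0.05. It was tested on simulated data. CPM and RPKM were computed here with TMM-scaled totals, and log2 CPM a prior count of 2. The 20 alternatives were other scalings, other filters on low counts, DESeq2 1.42.0, limma-voom (limma 3.58.1), thinning to the lowest total and leaving out each library. The members and the lists were chosen with earlier results of these data known. The text names the 6 members, the 3 called genes with the lowest p of each list, 14 partners named with the lists, and the 2 genes most alike to each member. Protein sequences, and promoters of members other than Cdh6 and Cdh15, are not analysed here. Of the genes that this rule names, 1 is not reported here and is left out of the plot of list genes, though it stays in the counts.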

Additional observations from a re-analysis of the deposited data

Results flagged for a closer look

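A value was taken up here when it lay apart from the other 5 of its group by Dixon's criterion at the 95% level, which chance meets in about 1 of 20 groups. Of 72 groups of values examined, 9 met it, and 8 of the 9 were horse serum library 6. Among the cadherins of the set this was Cdh13, at 158.9 CPM where the nearest library held 221.6 CPM. The low values of library 6 were also those of Nectin2 (24.65 CPM, nearest 32.37), Adipor2 (105.7 CPM, nearest 144.1) and Zeb1 (246.9 CPM, nearest 278.0). Its high values were those of Cdh24 (7.38 CPM, nearest 4.59), Pkp1 (99.1 CPM, nearest 87.0), Ctnnb1 (871 CPM, nearest 704) and Furin (66.1 CPM, nearest 45.2). The remaining one was Ctnnd1 in STEM library 12, at 32.1 CPM where the nearest library held 26.5 CPM. For the 8 genes, library 6 lay on the same side of its group as the mean of the STEM libraries.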

How the results depend on the processing

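None of the 5 tested cadherins and 31 partner genes run under the alternatives changed direction. The markers, the genes alike in pattern and the genes below the filter were not run under all of them. The number of cadherins of the set that passed was 4 to 5 with each library left out, and 4 with every other scaling, filter and test. The number of list genes called higher ran from 14 to 25 and called lower from 12 to 23 with each library left out, and the highest of both came without horse serum library 6, where 23 were lower. The log2 fold changes with a library left out ran from 1.92 to 1.99 for Cdh6, 0.62 to 0.80 for Cdh11, 0.42 to 0.55 for Cdh15, −0.51 to −0.41 for Cdh13 and −0.10 to −0.06 for Cdh2. With the longest transcript as gene length, the levels in horse serum were 33.8 RPKM for Cdh2, 0.459 for Cdh6, 12.8 for Cdh11 and 47.2 for Cdh13. Leaving out STEM library 12 made Ctnnd1 pass (adjusted p = 0.0299). Other scalings put the median log2 fold change of all genes between −0.01 and 0.03. Depth limits Cdh4 and the list genes under the filter, which had at most 19 counts in a library. Replicate numbers are not shared between the groups, so no paired analysis was possible because no library of one group is tied to one of the other.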
